A study of Homo sapiens with 6 samples.

Results

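SCN8A, the gene for the voltage-gated sodium channel Nav1.6, was read in SKBR3 cells with and without overexpressed cortactin (CTTN). It is 1 of 54644 rows of the gene table, with 24 of 264911 isoforms and 11 of 132223 start-site groups, where a start-site group is the set of isoforms that begin at the same place. The gene was selected on the contrast described here: it had the largest fall in CTTN cells among genes with a mean of at least 100 estimated fragments per library. Its levels in the 2 groups are therefore given as a description, with no test.

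SKBR3 is an established HER2-positive breast adenocarcinoma line. Both groups were stable lines made by lentiviral infection and puromycin selection: control cells carried the empty pLVX vector, and CTTN cells carried pLVX-CTTN, which encodes cortactin, an actin-binding protein. Each group had 3 biological replicates, and poly(A)-selected mRNA was sequenced from all 6. How the replicates relate to separate infections is not described in the sources used here, so every p-value below measures the spread between these libraries.

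Sodium channel alpha subunits form the pore through which sodium enters a cell when the membrane depolarizes. Nav1.6 is known best from neurons, where it gathers at the axon initial segment and at nodes of Ranvier, and beta subunits, ankyrins, FGF homologous factors and calmodulin bind alpha subunits and set their place and gating. Some carcinoma cells also transcribe sodium channel genes.

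The libraries held 34887079 to 41279658 fragments assigned to genes. CTTN itself was read at 263, 329 and 180 FPKM (fragments scaled to transcript length and library depth) in CTTN 1, 2 and 3, against 104, 108 and 108 FPKM in control 1, 2 and 3. CTTN was higher in CTTN cells by 1.35 on the log2 scale (SE 0.221, edgeR quasi-likelihood test, Benjamini-Hochberg adjusted p = 0.0248). Without CTTN 1 or without control 1, 2 or 3 the difference was 1.33 to 1.35 and was not called (edgeR adjusted p = 0.121 to 0.154). The epithelial and HER2 markers of the line were abundant, with ERBB2, the HER2 receptor gene, between 1640 and 1790 FPKM, and none of the 7 identity markers was called. Of ESR1, PGR and CDH1, genes low or absent in SKBR3, 2 were tested and none was called, and their summed level was 0.222 to 0.596 FPKM. A gene was called when its adjusted p was under 0.05 and its level differed at least 1.5-fold, which 479 of 14409 tested genes did (3.32%): 212 were lower in CTTN cells (1.47%) and 267 were higher (1.85%). Among the CTTN libraries, CTTN 2 lay nearest to the controls and CTTN 3 farthest from them, as the values by transcript length below show.

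The SCN8A row spans chromosome 12 from 51590266 to 51812864 on GRCh38. RefSeq places the gene's start on the plus strand at 51591233, which is 967 bases after the start of the row. The 250 bases before the RefSeq start (GRCh38.p14, chr12:51590983-51591232, plus strand, from RefSeq) are shown as the promoter of the annotated gene start. In the GRCh37 annotation the reference transcripts of the start-site groups that hold most SCN8A reads, TSS25815 and TSS25816, begin upstream of that start, so the window is the annotated promoter of neither. Capitals mark the GC box letters GGGCGG, some of which overlap.
SCN8A RefSeq promoter: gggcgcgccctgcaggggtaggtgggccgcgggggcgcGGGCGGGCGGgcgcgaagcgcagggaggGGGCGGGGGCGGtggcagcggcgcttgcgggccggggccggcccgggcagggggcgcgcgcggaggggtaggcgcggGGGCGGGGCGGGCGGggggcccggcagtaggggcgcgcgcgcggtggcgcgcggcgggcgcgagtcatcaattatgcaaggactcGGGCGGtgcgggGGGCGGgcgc
The window held 9 GC boxes (GGGCGG, searched on both strands), all on the plus strand. A GC box was present in 42.6% of 35116 RefSeq promoters of the same length, and 0.285% had at least 9. Its base composition was also far from typical, with 85.6% G or C against a median of 58.0%, and 45 CpG pairs against a median of 11. The letters TATAAA, held by 10.7% of promoters, and CCAAT, held by 32% of promoters, were found on neither strand. These are matches of letters, and no binding was measured.

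SCN8A was far lower in every CTTN library than in any control library. The gene was assigned 478, 816 and 225 estimated fragments in CTTN 1, 2 and 3, and 2475, 3184 and 3130 in control 1, 2 and 3. Scaled for length and depth, the levels were 1.15, 1.98 and 0.566 FPKM in CTTN cells against 5.9, 6.46 and 7.31 FPKM in controls. The groups did not overlap, and the highest CTTN library, CTTN 2, stayed below the lowest control. The mean level was 1.23 ± 0.709 FPKM in CTTN cells and 6.56 ± 0.706 FPKM in controls (SD, n = 3), a ratio of 5.33. The difference in the fit over all genes was -2.43 on the log2 scale (SE 0.367). In controls the gene stood in the middle of the tested genes by FPKM, at percentiles 43.1, 44.4 and 46.3. In CTTN cells it stood at percentiles 20.2, 26.4 and 13. In these bulk samples, fewer cells that transcribe SCN8A and less SCN8A RNA per cell cannot be told apart.

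**Figure D1:**
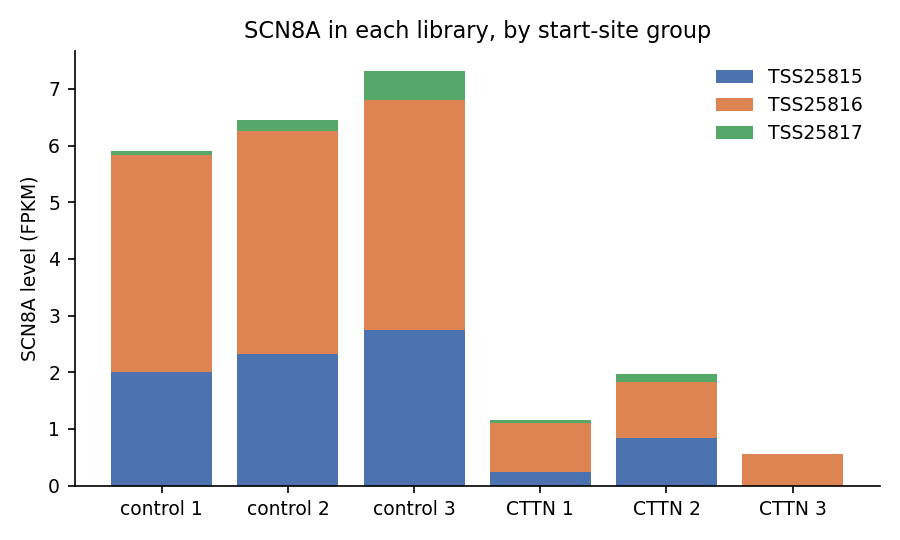
Stacked bars give the SCN8A level in FPKM (vertical axis) in each of the 6 libraries (horizontal axis), and colours give the 3 start-site groups that were read. Controls total 5.9 to 7.31 FPKM and CTTN libraries 0.566 to 1.98 FPKM, and the TSS25815 part is absent from CTTN 3.

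The CTTN libraries differed among themselves more than the controls did. On the log2 CPM scale (fragments scaled to library depth alone, prior count 2), SCN8A was at 3.76, 4.44 and 2.78 in CTTN cells and at 6.13, 6.25 and 6.35 in controls. The SD was 0.835 among CTTN libraries and 0.11 among controls, while the medians of the same SDs over all tested genes were 0.233 and 0.0775. A wider spread in CTTN cells was general, since the CTTN SD exceeded the control SD in 86.8% of the genes with at least 100 fragments, but only 0.448% of those genes had a larger CTTN SD than SCN8A. The order of the CTTN libraries was the same for SCN8A and for CTTN mRNA, highest in CTTN 2 and lowest in CTTN 3.

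Transcript length moved with this order. SCN8A isoforms averaged 11447 bases, and the 250 tested genes longer than 10 kb had a median difference of -0.47 (log2, CTTN minus control), against 0.40 for the 1352 genes shorter than 1 kb and 0.01 for those of 2 to 4 kb. Each gene's log2 CPM was centred on its mean over the 6 libraries, and the median over genes longer than 10 kb was then -0.33, 0.28 and -0.75 in CTTN 1, 2 and 3 and 0.16, 0.31 and 0.34 in control 1, 2 and 3. CTTN 2 therefore lay inside the range of the controls for long genes, whereas CTTN 1 and CTTN 3 lay below it. SCN8A, centred in the same way, was at -1.19, -0.51 and -2.17 in CTTN cells and at 1.18, 1.29 and 1.40 in controls. Each library's trend on length was then removed, an alternative chosen after seeing the data. SCN8A then stood at 4.08, 4.18 and 3.54 log2 CPM in CTTN cells and 5.95, 5.94 and 6.03 in controls. Its difference, fitted by limma on these values, was -2.04, against -2.58 by limma on the uncorrected log2 CPM. The part of transcript length in the SCN8A difference was not tested.

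**Figure D2:**
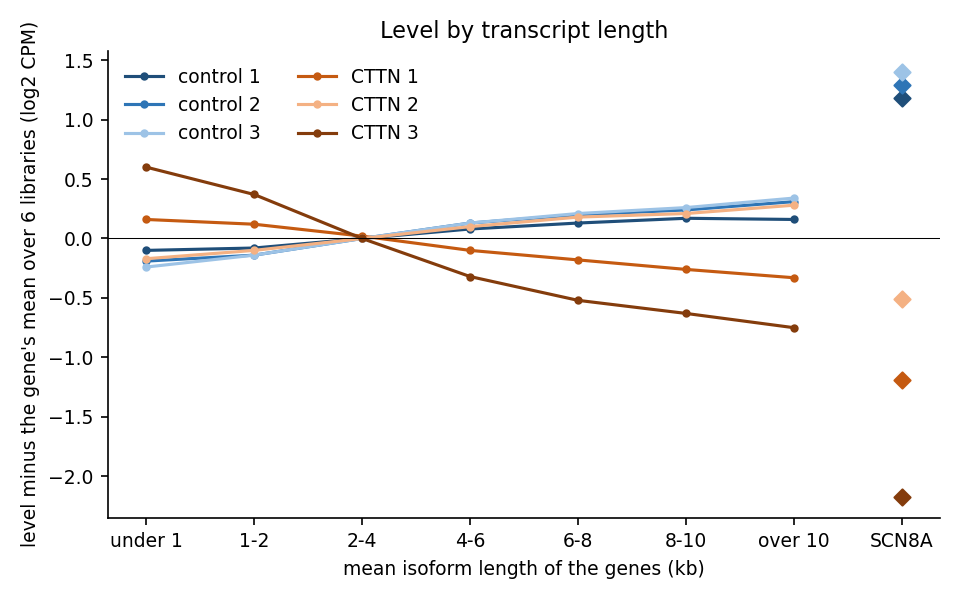
Lines join, for each library, the median log2 CPM of genes in 7 classes of mean isoform length (horizontal axis, kb) after each gene was centred on its mean over the 6 libraries (vertical axis), and diamonds give SCN8A centred in the same way. For genes over 10 kb, CTTN 3 is at -0.75 and CTTN 2 is at 0.28 beside the controls, while the SCN8A diamonds of all CTTN libraries lie below 0 and those of controls lie above 1.

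By its fall, SCN8A ranked 1 of the 10940 genes with a mean of at least 100 fragments and 5 of all 14409 tested genes, and the 4 genes below it all had fewer than 100 fragments. Leaving SCN8A aside, 23 of the genes read at least as deeply as it (4717 with SCN8A) were called lower, beside 1.47% of all tested genes. The 3 genes next in rank bound the selection, and their values are given without a test. DCAF4L2, a DCAF4-like gene, was at 0.414, 0.584 and 0.349 FPKM in CTTN 1 to 3 and at 2.03, 1.98 and 1.97 FPKM in controls, with a log2 difference of -2.09 (SE 0.16). PLEKHS1, which encodes a pleckstrin homology domain protein, was at 1.19, 0.869 and 1.35 FPKM against 2.77, 2.02 and 3.14 FPKM, with a difference of -1.70 (SE 0.182). HSD17B1, which makes estradiol from estrone, was at 11, 7.75 and 16.7 FPKM against 38.9, 39.2 and 34.5 FPKM, with a difference of -1.70 (SE 0.218). On the FPKM scale SCN8A and DCAF4L2 were lowest in CTTN 3 among the CTTN libraries, and PLEKHS1 and HSD17B1 were highest there.

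**Figure D3:**
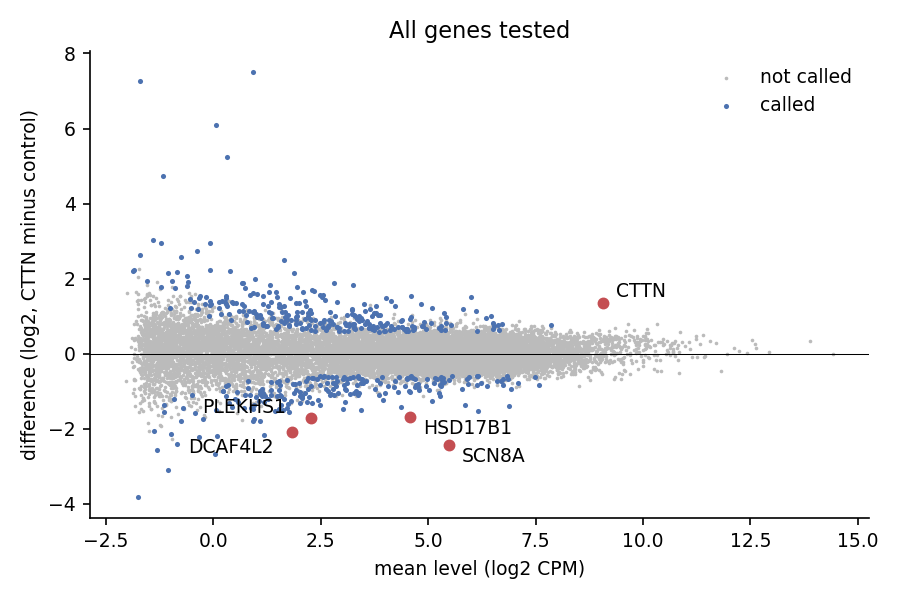
Each point is 1 of 14409 tested genes, placed by its mean level (log2 CPM, horizontal axis) and its fitted difference (log2, CTTN minus control, vertical axis), with called genes in blue. SCN8A lies at -2.43, below the next 3 genes in rank at -2.09, -1.70 and -1.70, and CTTN lies at 1.35.

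The reads of SCN8A were assigned to few of its isoforms. Of the 24 isoforms, 15 equal a reference transcript and 9 are assembled variants of the reference transcript ENST00000354534 that share at least 1 of its splice junctions. At least 1 fragment was estimated for 8 isoforms in some library, and at least 10 fragments for 5. A pair of assembled variants, TCONS_00051636 of 11384 bases and TCONS_00051632 of 11787 bases, held 96.1% to 99.2% of the gene's fragments in each library. The split among overlapping isoforms was estimated by the assembler from shared reads, so a value of 0 for an isoform can be a failed assignment. ENST00000354534 itself, of 11556 bases, was listed at 0 in each library.

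The 2 leading variants begin in different start-site groups. TCONS_00051636, in TSS25816, was estimated at 364, 423 and 221 fragments in CTTN 1, 2 and 3 and at 1580, 1960 and 1810 in control 1, 2 and 3. TCONS_00051632, in TSS25815, was estimated at 106, 361 and 0 fragments in CTTN cells and at 875, 1200 and 1270 in controls. Both were lower in each CTTN library than in any control, and only TCONS_00051632 reached 0. Together they hold most of the gene's fragments, on whose fall SCN8A was chosen, so this is a description only.

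By start-site group, TSS25816 with its 3 isoforms was at 0.86, 0.977 and 0.562 FPKM in CTTN cells and 3.83, 3.93 and 4.07 FPKM in controls, a ratio of means of 4.93. TSS25815 with its 6 isoforms was at 0.242, 0.846 and 0 FPKM against 2, 2.32 and 2.74 FPKM, and no ratio is given because its CTTN mean rests on CTTN 2. Neither group overlapped between CTTN cells and controls, which again describes the fall that the gene was chosen for. TSS25817, whose 4 isoforms include ENST00000354534 and had at most 48 fragments in any library, was at 0.049, 0.155 and 0.00342 FPKM against 0.078, 0.208 and 0.497 FPKM, and there CTTN 2 lay above control 1. The other 8 groups were listed at 0 in every library.

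The division between start-site groups was steady in controls and varied in CTTN cells. TSS25816 held 60.4% ± 4.59 and TSS25815 held 35.8% ± 1.83 of the SCN8A FPKM in controls (SD, n = 3). In CTTN 1, 2 and 3, TSS25816 held 74.7%, 49.4% and 99.4%, and TSS25815 held 21%, 42.8% and 0%. The CTTN shares lay on both sides of the control shares, so no change of start-site use in one direction was seen over the 3 libraries. In the GRCh37 annotation used for comparison, ENST00000550891 of TSS25816 begins 660 bases after ENST00000546961 of TSS25815. Of the reference transcripts that the files place in TSS25817, ENST00000354534 begins 970 bases and ENST00000545061 begins 72498 bases after it, so one annotated position cannot be given for that group.

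Most other sodium channel alpha subunits were not read in these cells. SCN1A, SCN3A and SCN9A, which are neuronal channels, SCN7A, and SCN10A and SCN11A of sensory neurons had 0 fragments in every library. A count of 0 allows up to 3 fragments, or 0.0727 to 0.086 CPM in these libraries, counting error only. SCN2A, a brain channel with 2 rows, had at most 4 fragments, and SCN4A of skeletal muscle had at most 10.

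Among the beta subunits, which modulate the alpha subunit and act in cell adhesion, SCN4B was the only tested gene. SCN4B had 32, 34 and 21 fragments in CTTN cells and 50, 68 and 51 in controls, which is 0.201, 0.234 and 0.242 FPKM against 0.377, 0.363 and 0.318 FPKM. It was not called (log2 difference -0.83, SE 0.212, edgeR adjusted p = 0.0722). SCN2B and SCN3B had at most 8 and 9 fragments in any library.

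Of 23 genes for anchors, regulators and partners of sodium channels, 18 were tested, 1 was called lower and none higher, with a median difference of -0.14 against 0.01 for all tested genes. The called gene was CAMK2D, a calcium/calmodulin-dependent kinase subunit that phosphorylates sodium channels. CAMK2D was at 4.7, 6.74 and 3.64 FPKM in CTTN cells and 7.8, 7.66 and 7.81 FPKM in controls (log2 difference -0.64, SE 0.0946, edgeR adjusted p = 0.0173). Among the abundant calmodulin genes of the list, CALM3 and CALM2 were not called, with differences of 0.04 for CALM3 and 0.39 for the row that joins CALM2 with STPG4 and AC073283.3. ANK3, which encodes the ankyrin that anchors Nav1.6 at the axon initial segment, and FGF13, an FGF homologous factor, are named outside the rule and after their values were seen: their differences were -0.62 (edgeR adjusted p = 0.126) and -0.83 (edgeR adjusted p = 0.0686), and neither was called. Genes of the same length classes, 4 to 6 kb for ANK3 and 1 to 2 kb for FGF13, had median differences of -0.20 and 0.26.

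Other routes of sodium across the membrane showed few calls. None of 6 tested leak, epithelial and acid-sensing sodium channels was called. SCNN1A, the alpha subunit of the epithelial channel, was at 41.2 ± 2.29 FPKM in controls and 29 ± 1.15 FPKM in CTTN cells, a log2 difference of -0.48 that passed the test (edgeR adjusted p = 0.0276) but not the 1.5-fold limit. ASIC1 and ASIC3, acid-sensing channels, differed by -0.03 and 0.17. ATP1B1 and ATP1B3, abundant beta subunits of the sodium pump, differed by 0.09 and 0.33 and were not called. None of 4 tested voltage-gated calcium channel alpha-1 subunits, the nearest relatives of the sodium channels, was called, and the highest of them, CACNA1D and CACNA1I, differed by -0.55 and 0.19.

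Of 14 splicing factors of families known to act on sodium channel exons, 9 were tested and 1 was called lower. That gene, NOVA1, a neuronal RNA-binding protein, had 34, 40 and 28 fragments in CTTN cells and 89, 110 and 113 in controls (log2 difference -1.49, SE 0.167, edgeR adjusted p = 0.00814). Its FPKM differed less than its fragments, with 0.772, 0.605 and 0.691 against 1.06, 1.22 and 1.19. PTBP1, CELF1 and PTBP3, the most abundant factors by FPKM, differed by -0.16, -0.25 and -0.37 and were not called; PTBP1 shares a merged row.

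The 10 genes of the REST complex, which silences neuronal genes outside the nervous system, were all tested and none was called, with a median difference of -0.24. REST itself, also named after its values were seen, was at 5.81, 5.72 and 5.7 FPKM in CTTN cells and 7.3, 6.97 and 7.16 FPKM in controls. It was not called (log2 difference -0.42, SE 0.111, edgeR adjusted p = 0.0769). The mean isoform length of REST was 6533 bases, and genes of 6 to 8 kb had a median difference of -0.33. HDAC1, HDAC2 and KDM1A, chromatin enzymes of the complex, differed by 0.01, 0.02 and 0.09.

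**Figure D4:**
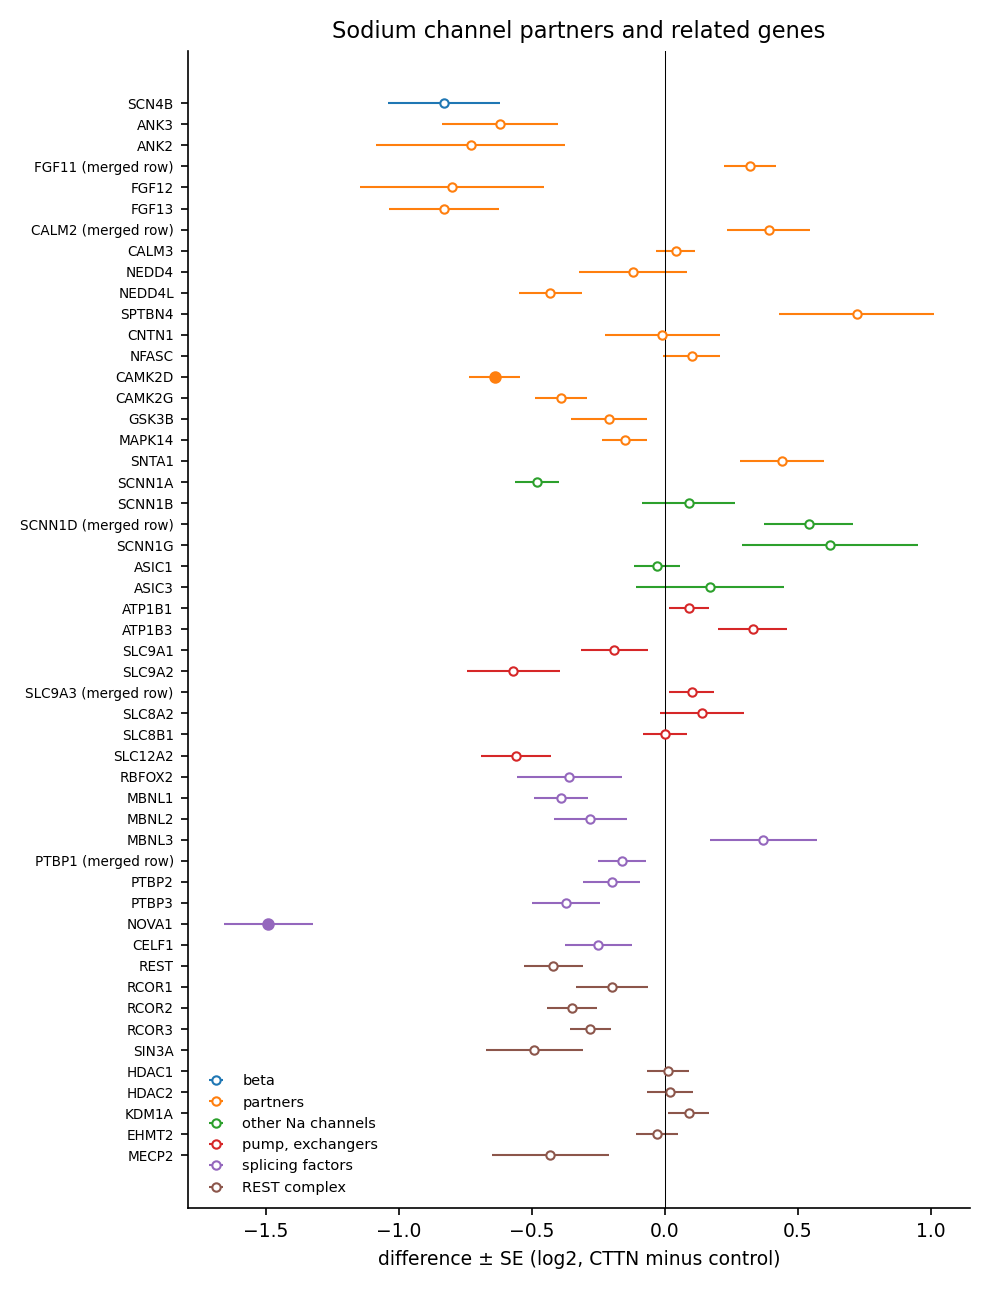
Points give the fitted difference with its SE (log2, CTTN minus control, horizontal axis) for tested sodium channel beta subunits, partners, other sodium channels, pump subunits and exchangers, splicing factors and REST complex genes, with filled points for called genes. CAMK2D at -0.64 and NOVA1 at -1.49 are the filled points.

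Genes beside SCN8A on chromosome 12 had differences on both sides of 0. Of 44 rows within 500 kb, 17 were tested and none was called; 10 were below 0, and the median difference was -0.06. The lowest was SLC4A8, a sodium-driven bicarbonate exchanger 74.5 kb before the SCN8A row, named after its values were seen. SLC4A8 was at 2.11, 1.94 and 1.14 FPKM in CTTN cells and 3.3, 2.77 and 3.25 FPKM in controls (log2 difference -1.03, SE 0.224, edgeR adjusted p = 0.051). It is long as well, with a mean isoform length of 9521 bases, and genes of 8 to 10 kb had a median difference of -0.41. The row of GALNT6, a glycosyltransferase gene at the same locus, differed by -0.33 (edgeR adjusted p = 0.123). The 3 most abundant neighbours, the keratin genes KRT7 and KRT81 and DAZAP2, differed by 0.10, -0.14 and 0.00.

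**Figure D5:**
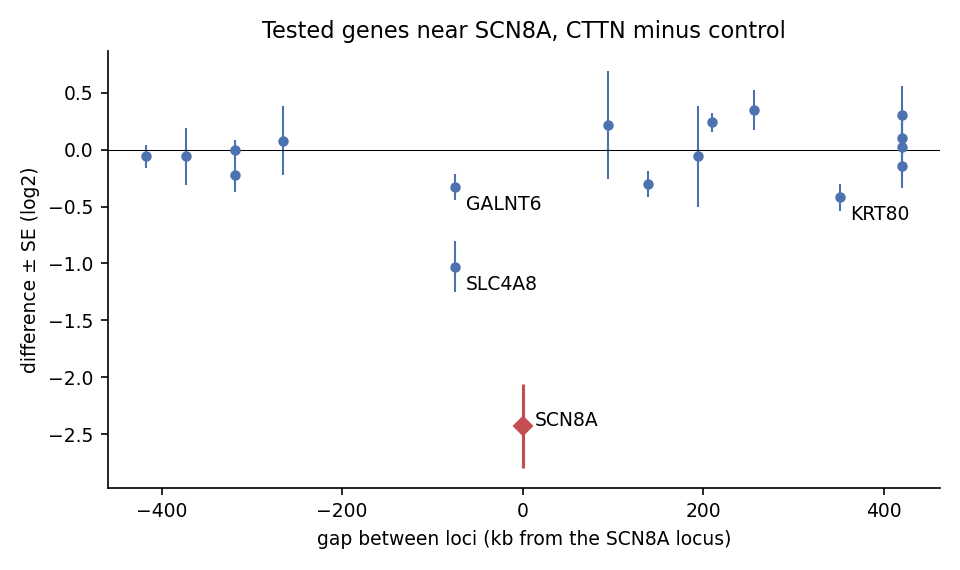
Points give the fitted difference with its SE (log2, CTTN minus control, vertical axis) for the 17 tested genes within 500 kb, placed by their gap to the SCN8A row (horizontal axis, kb), and the diamond gives SCN8A. SCN8A is at -2.43, SLC4A8 at -1.03, and the others lie between -0.42 and 0.35.

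Markers of neurons and glia were low in both groups. Of 9 neuron markers 3 were tested and none was called; NEFL and STMN2, for a neurofilament and a neuronal stathmin, were at 0 in every library, and SNAP25, a synaptic vesicle fusion protein, had at most 1 fragment. The summed neuron marker level was 1.88 to 2.39 FPKM in controls and 2.11 to 2.41 FPKM in CTTN cells. SYT1, a synaptic calcium sensor, was at 1.24, 1.23 and 1.53 FPKM in controls and 1.38, 1.23 and 0.852 FPKM in CTTN cells. SLC17A7, a vesicular glutamate transporter, was at 0.464, 0.368 and 0.447 FPKM in controls and 0.66, 0.749 and 0.973 FPKM in CTTN cells. It was not called (log2 difference 0.87, SE 0.214, edgeR adjusted p = 0.0678). Of 5 glia markers 1 was tested and none was called, and their summed level was 0.405 to 0.73 FPKM in controls and 0.139 to 0.298 FPKM in CTTN cells, most of it MBP, the myelin basic protein (log2 difference -0.99, edgeR adjusted p = 0.0888), while SOX10 was at 0. Of 10 fibroblast, endothelial and leukocyte markers 4 were tested and 1 was called lower, CDH5, the vascular endothelial cadherin, at 1.58, 2.02 and 1.43 FPKM in CTTN cells and 3.96, 4.45 and 4.03 FPKM in controls (log2 difference -1.49, SE 0.173, edgeR adjusted p = 0.00843). Other defining endothelial markers were low in both groups, with PECAM1 at most 6 fragments and VWF at most 66. COL1A1, a collagen gene, was at 3.27, 4.26 and 2.83 FPKM in CTTN cells and 3.73, 3.36 and 4.22 FPKM in controls. It was not called (log2 difference -0.16, edgeR adjusted p = 0.299). The other fibroblast markers COL1A2, DCN and LUM had at most 3, 1 and 2 fragments. The summed level of that list, 613 to 640 FPKM in controls and 626 to 860 FPKM in CTTN cells, came almost entirely from a merged row of CD68 and other genes.

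Over all 14 lists, 92 of 171 rows were tested and 4 were called, 4.35% of those tested beside 3.32% of all genes. CAMK2D, NOVA1 and CDH5 were among the 4, and these calls depended on the libraries and the scale used. None of the 3 was called when CTTN 1 or any 1 of the 3 controls was left out, where adjusted p ran from 0.0569 for NOVA1 without control 1 to 0.125 for CAMK2D without control 2 (edgeR), while without CTTN 2 or without CTTN 3 all 3 were called. After the length trend was removed (limma on log2 CPM), NOVA1 and CDH5 were still called, and CAMK2D differed by -0.41, less than 1.5-fold. CAMK2D and NOVA1 were not called with limma on log2(FPKM + 1) or log2(FPKM + 0.1), nor with the sample table's numbers as a block, and CDH5 was called in all 3. The NOVA1 difference was -0.35 and -0.67 on the FPKM scales (limma adjusted p = 0.0815 and 0.113) and -1.49 with the block (edgeR adjusted p = 0.0531).

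The genes whose pattern over the 6 libraries was most like that of SCN8A were sought among all tested genes by the root mean square difference of centred log2 CPM, where 0 would be an identical pattern. They were AC009299.1 (0.236), SEMA3A, a secreted axon guidance cue (0.25), the merged row of HYMAI and PLAGL1 (0.306), PHYHIPL (0.396) and MED15P6 (0.403). All 5 were thinly read, with means of 9 to 37.8 fragments per library. SEMA3A, for example, had 4, 4 and 1 fragments in CTTN cells and 26, 31 and 30 in controls. Ranked by Pearson correlation over the same 6 libraries, which ignores the size of the change, the nearest genes were CA12, TAF5L, LASP1, CYP4Z2P and CASP2, and none was shared with the first set. Their differences were between -0.94 and -0.38, against -2.43 for SCN8A.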

How the data were processed

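The deposited tables were used as the authors left them. Per the submitters' processing notes, the authors used bcl2fastq 2.20.0, Trimmomatic, STAR and Cufflinks with GRCh38; the study's methods name other trimming and an earlier build, and the loci of the files lie on GRCh38. The authors deposited FPKM and estimated counts for genes, isoforms and start-site groups, normalized between libraries. Coding-sequence tables were not used, and within the tables used the number of columns of per-sample values left out was 0. CTTN columns match the labels by name. The sample table names the control columns differently from the labels, so controls are numbered as in the sample table; their group is the same in both.

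Estimated counts were multiplied back by each library's internal scale and rounded to whole numbers. They were tested with edgeR 4.0.16 (TMM, filterByExpr, quasi-likelihood, group as the only term) in R 4.3.3, with Benjamini-Hochberg adjustment over all 14409 tested genes. The threshold was an adjusted p under 0.05 and at least 1.5-fold. The SE of a difference was derived from its F statistic. The code was tested on simulated data. Alternatives used DESeq2 1.42.0, limma 3.58.1, other scalings and filters, left-out libraries and a replicate block; those on the length trend, the sample-table block and limma on log2 CPM were chosen after seeing the data.

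SCN8A and all lists were chosen with earlier results of these data known. Genes were named by rule: SCN8A with its isoforms and start-site groups, the 3 genes next in rank, the 5 most like it, all sodium channel alpha and beta subunits, called members of the other lists and up to 3 of their most abundant members. Some of these genes are not reported here. Depth was 34887079 to 41279658 fragments per library, and no pair of libraries was a duplicate: the chi-square per gene between libraries of 1 group was 4.55 or more, where counting noise alone gives about 1.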

Additional observations from a re-analysis of the deposited data

How the results depend on the processing

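The SCN8A difference, on which the gene was chosen, was -2.43 as reported. It was -1.81 on log2(FPKM + 1), which shrinks low values by construction, and -2.9 to -2.1 with 1 library left out. The mean share of SCN8A FPKM in TSS25816 was 58.3% to 62.8% in controls and 62.1% to 87.1% in CTTN cells with 1 library left out, and 61.2% and 75.8% as shares of fragments. The count of called genes, 479 as reported, was 1074 with DESeq2, 774 without a filter on low counts, and 149 and 170 with limma on log2(FPKM + 1) and log2(FPKM + 0.1). With limma on log2 CPM it was 471, and 755 after the length trend was removed. With 1 library left out the count ran from 15 to 3110: 32 without CTTN 1, 3110 without CTTN 2, 594 without CTTN 3, and 29, 15 and 16 without control 1, 2 and 3. The share called lower, 44.3% as reported, ran from 33.3% without control 2, where 15 genes were called, to 53.9% without CTTN 2. The 4 calls among the gene lists became 9 with DESeq2, 1 with either FPKM scale and 0 to 20 with 1 library left out. With limma on log2 CPM there were 5, and 8 after the length trend was removed. The cause of these changes was not tested. The genes most like SCN8A depended on the measure, with 0 of 5 shared under Pearson correlation. Among 255 values of named genes under alternatives, none changed sign, 182 stayed on the same side of the threshold, 61 fell below it and 12 passed it.

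Libraries with the same number in the sample table did not deviate together (correlations of 0.02, 0.08 and -0.19). By the labels' numbers, CTTN 1 pairs with control 2 and CTTN 2 with control 3 (correlations of -0.01 and 0.20). Neither numbering was taken as pairs in the reported fit. With a replicate block by the sample table's numbers, 105 genes and 1 list gene were called and the SCN8A difference was -2.56. With the block by the labels' numbers, over 4 libraries, 829 genes were called and the difference was -2.2.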
